A study of Arabis alpina with 12 samples.

Results

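H3K4me3, trimethylation of lysine 4 on histone H3, was profiled in young leaves of the perennial crucifer Arabis alpina, in plants of the accession Pajares. All 37507 domains of the deposited H3K4me3 list were taken, out of 178416 domains in the 4 mark lists of the series. They were read against the start, end and mRNA coverage of the 24657 genes in the deposited mRNA table. They were kept in soil at 22.5 °C with 16 h light and 8 h dark per day, and the labels name no mutation, transgene or treatment. Chromatin immunoprecipitation of H3K4me3 has 2 libraries and 1 input library among the 12 of the series. The labels number the 2 as replicates and do not say whether they came from separate plants. The material is bulk leaf, so cell types are averaged. The authors deposited 1 domain list for the mark and 1 mRNA library, so a replicate error cannot be given and no test between conditions exists. Intervals are 95% intervals over domains or genes (exact binomial for shares, order-statistic for medians) and cover counting error only. Depth is unknown.

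H3K4me3 is laid down by methyltransferases of the Trithorax type. In plants it typically sits over the first nucleosomes downstream of transcription start sites of active genes. Proteins with dedicated binding domains recognise it, and it is removed by demethylases of the JmjC family. The mRNA table gives neither strand nor names, so gene starts could not be told from gene ends, and the label of the mark was checked against gene position and mRNA instead. A gene is called marked where H3K4me3 domains took up 200 bp or more between its start and end. By this rule 18794 listed genes were marked, 76.2% of all. The share was 77.4% with 1 bp and 22.8% with 50% of the span as the minimum.

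The domains were short and lay on a grid of 150 bp windows. Their median length was 600 bp (quartiles 450 and 900 bp), and they covered 26.4 Mb on 1402 sequences. The shortest were a single window, with 1603 domains (4.27%), and 89 domains (0.24%) were 3 kb or longer, up to 8.4 kb. No domains overlapped, and the smallest gap between neighbours was 1 window. Each domain carries 1 whole-number score that has no label in the list. It is given here per kb of domain and used only within this list. Score per kb had a median of 571.7 (quartiles 435 and 943.3) and ran from 286.7 to 4675.

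Length and score per kb separated domains at genes from the others. The 19837 domains that touched exactly 1 listed gene had a median length of 750 bp and a median score of 885.3 per kb (interval 877.8 to 893.3). The 469 domains that touched 2 genes were longer and denser, with medians of 1350 bp (1200 to 1350) and 1014 per kb (971.1 to 1072). A domain that touches 2 genes has to reach across any gap between them, so its greater length partly follows from the grouping. The 17186 domains that touched no listed gene had medians of 450 bp and 441.7 per kb (440 to 443.3). H3K27me1 covered 86.9% of the bp of these domains and 5mC 59.2%, against 3.52% and 2.62% in domains that touched 1 gene, and their part was not tested. Only genes in the table count here, so a domain that touched none may still lie on an unlisted gene.

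**Figure D1:**
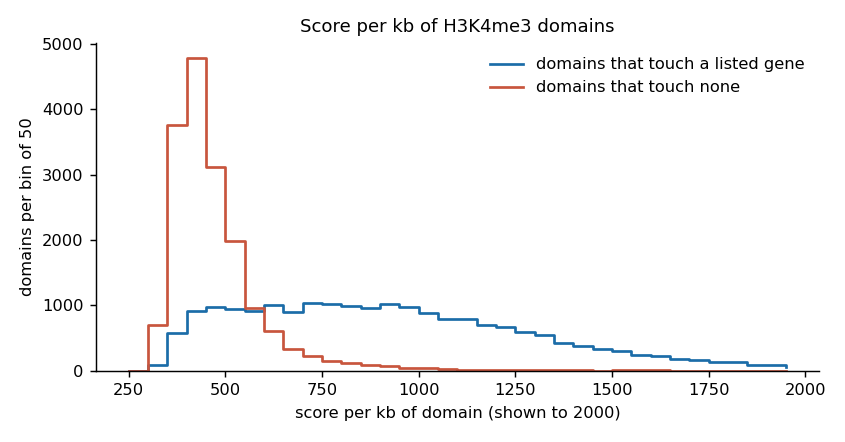
Score per kb of H3K4me3 domains (x axis, to 2000) against the number of domains in bins of 50 (y axis), for domains that touch a listed gene and domains that touch none. Domains without a listed gene pile up around their median of 441.7 per kb, while those with one spread widely around 889.3 per kb.

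Domains next to a gene but not touching it were closer in score to the distant ones than to those on genes. There were 426 domains within 500 bp of a listed gene, with a median score of 520 per kb (506.7 to 542). The 7417 domains at 10 kb or more had a median of 433.3 per kb (430 to 434.7). Median length was 450 bp in both groups. H3K27me1, a mark of plant heterochromatin, moved with this distance: it covered 39.5% of the bp of the former and 91.2% of the latter. Its part in the difference was not tested.

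Length alone did not order the scores evenly. Median score per kb was 450 in domains of 300 bp, 605 in those of 600 bp and 896.1 in those of 900 bp. In domains of 3 kb or more it was lower again, at 702.7. Over these classes the share that touched a listed gene followed the same course, with 26.7%, 58.0%, 75.5% and 39.3% in that order. The shortest domains, of 150 bp, did not follow it. Their median was 533.3 per kb, and 21.1% touched a listed gene. In the domains of 3 kb or more, 70.6% of the bp lay in H3K27me1 and 63.1% in DNA methylation (5mC). Of the 5 longest domains, all but a 6.6 kb domain over 5 listed genes touched no listed gene. Those without a gene lay at least 97.6% in H3K27me1 and at least 95.1% in 5mC. Their scores ran from 547.3 to 1918 per kb.

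Position inside the span was asked first of the domains, without choosing genes by where they were marked. Of 11937 domains that touched 1 gene of at least 2 kb and no other gene, 9492 (79.5%, interval 78.8% to 80.2%) crossed a span end or began within 150 bp of it. These had a median score of 933.3 per kb (925.3 to 942.4). A further 1030 domains (8.63%) began more than 150 and up to 500 bp inside, with a median of 603.9 per kb. The 1415 domains (11.9%) more than 500 bp inside had 544.4 per kb (529.3 to 560). The deeper domains were thus both rarer and of lower score. The room for a domain at each depth depends on span and domain length. The shares were not set against that room, so how far it accounts for them was not tested.

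The deepest domains also lay on genes with less mRNA. The 254 domains more than 2 kb from either end sat on genes with a median mRNA coverage of 2.73 (2.23 to 3.19), against 7.37 (7.22 to 7.52) for domains at an end. H3K27me1 covered 43.0% of the bp of the former and 2.83% of the latter, and its part in the difference was not tested. Only longer genes can hold a domain that deep. Marked genes had a median coverage of 7.72 (7.44 to 7.97) at 2 to 3 kb of span and 5.00 (4.55 to 5.66) at 8 kb or more. The part of span was not tested either. mRNA coverage is the authors' exon coverage per gene, a signal never below 1. In bulk leaf, fewer cells with an mRNA and less of it per cell cannot be told apart.

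Most marked genes carried the mark at 1 end only. An end counts as marked where domains take up 150 bp or more of the outermost 300 bp. Of the 13038 listed genes of at least 2 kb, 10790 (82.8%) were marked. Of these, 9335 had 1 marked end (86.5%, interval 85.9% to 87.2%), 220 had both (2.04%) and 1235 had neither (11.4%). The marked end was the lower coordinate in 4747 genes and the higher in 4588, an almost even split.

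Genes marked at neither end differed in score and in other marks. Their median score was 671.1 per kb (648.3 to 713.3), against 945.6 (937.1 to 954.8) with 1 marked end. Their median mRNA coverage was 4.86 (4.62 to 5.33), against 7.44 (7.29 to 7.62). H3K27me3, the mark of Polycomb repression, was on 27.8% of them and on 5.03% of genes with 1 marked end. Of the 220 genes marked at both ends, 43 had a single domain and 177 had more. Their median coverage was 5.85 (4.62 to 6.65), and 25.9% carried H3K27me1, against 3.396% of those with 1 marked end.

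The outer edge of the domain coincided with the end of the gene span to within the grid. Over the 9335 genes with 1 marked end, the domain's outer edge lay a median of 9 bp outside the span end (interval 7 to 10, quartiles 40 bp inside and 60 bp outside). It was within 75 bp of the span end in 69.0% of genes. The rule for a marked end keeps the edge from lying more than 150 bp inside, but sets no limit outwards. Outwards, 6.62% of domains ran more than 150 bp beyond the span, 2.77% more than 500 bp and 0.52% more than 1 kb. The mark therefore rarely ran into the flank.

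Into the gene, the domain ran a median of 751 bp from the marked end (745 to 758). The quartiles were 604 and 948.5 bp, and 5% of genes lay below 388.7 bp and 5% above 1546 bp. Only 12.3% of genes had a reach of 500 bp or less, and 94.5% had 1.5 kb or less. At 200 bp inside the marked end 99.8% of these genes lay in a domain, which the rule for a marked end largely sets. At 500 bp the share was 88.2%, at 1 kb 23.3% and at 2 kb 3.21%. At 300 bp outside the marked end it was 7.77%. At 100 bp inside the other end it was 0.075%, a low point that the choice of genes with 1 marked end fixes.

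**Figure D2:**
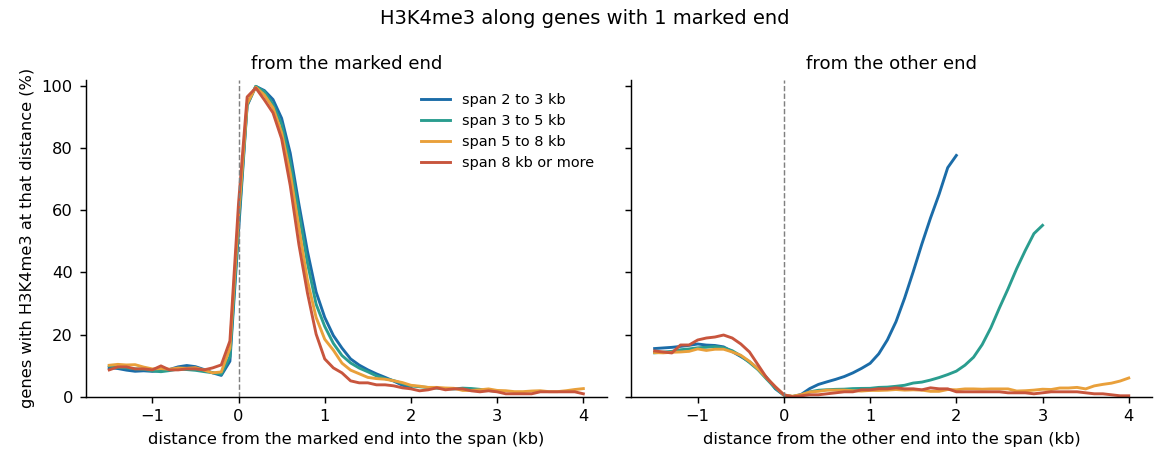
Share of genes with H3K4me3 (y axis) at each distance from the marked end (left) and from the other end (right), in kb, with negative distances outside the span, for the 9335 genes of at least 2 kb with 1 marked end in 4 span classes. The high share at 200 bp is largely set by the rule for a marked end. At 1 kb from the marked end the curves run from 12.2% in the longest class to 25.5% in the class of 2 to 3 kb. On the right, the class of 2 to 3 kb rises to 77.6% at 2 kb and that of 3 to 5 kb to 55.2% at 3 kb. This rise is the domain at the marked end, met from the other side.

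From 1 kb of span upwards, the length of this stretch hardly went with gene length. Marked genes were divided into 7 classes by span. Median H3K4me3 within the span was 352 bp (314 to 379) in genes under 0.5 kb and 600 bp in genes of 0.5 to 1 kb. It was 750 bp in each class from 1 to 2 kb up to 8 kb or more. The median share of the span in H3K4me3 accordingly went from 93.0% in the shortest class through 49.3% at 1 to 2 kb to 7.30% in the longest. Over 18794 marked genes, the Spearman correlation of span with H3K4me3 bp was 0.15 (Pearson r with log2 span 0.21). Within the class of 2 to 3 kb it was 0.007, and within 3 to 5 kb and 5 to 8 kb -0.02 each. In shorter genes, where the span itself limits the stretch, it was 0.58 under 0.5 kb and 0.46 at 0.5 to 1 kb. These coefficients describe genes of 1 domain list, which are not replicates.

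**Figure D3:**
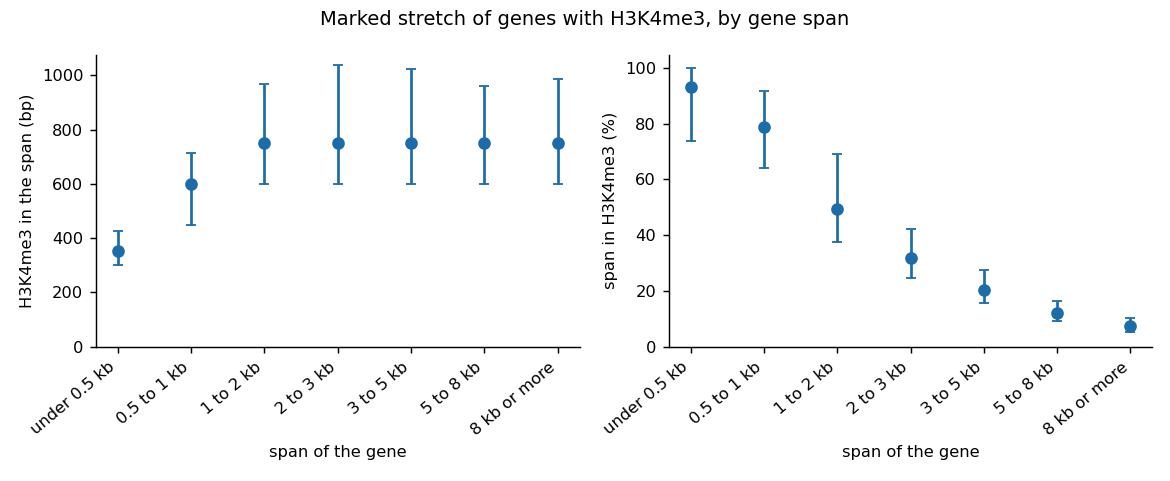
Median H3K4me3 within the span in bp (left) and as a share of the span in % (right) for marked genes in 7 span classes, with bars from the lower to the upper quartile. The bp level off at 750 from 1 kb of span onwards, while the share goes on down to 7.30%.

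Reach told the same of the longest genes. It had a median of 766 bp (757 to 778) in genes of 2 to 3 kb, 747 bp (737 to 757) at 3 to 5 kb, 718.5 bp (702 to 741) at 5 to 8 kb and 686 bp (664 to 716) at 8 kb or more. The longest class was thus slightly lower than the class of 2 to 3 kb, by more than the intervals. Score per kb of the domain with most of its bp on the gene was 934.2 (922.9 to 945) at 2 to 3 kb and 893.3 (838.3 to 957.8) at 8 kb or more, with overlapping intervals. In genes under 0.5 kb it was lower, at 763.3 (716 to 826.7). Over all marked genes the Spearman correlation of span with score per kb was -0.03 (r = -0.03).

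Whether a gene was marked at all did go with its span. The share was 30% (26.6% to 33.6%) of 690 genes under 0.5 kb, 56.3% at 0.5 to 1 kb, 76.5% at 1 to 2 kb and 82.3% at 2 to 3 kb. Beyond that it levelled off, reaching 86.3% (82.9% to 89.1%) of 502 genes of 8 kb or more. The minimum of 200 bp weighs more on short genes. Of marked genes under 0.5 kb, 94.2% had both ends marked, and the end windows of such genes overlap. The share marked at neither end was 9.30% at 2 to 3 kb and 25.4% (21.4% to 29.8%) at 8 kb or more. H3K27me1 was on 1.95% and 26.8% of the marked genes of these classes, and its part was not tested.

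Several domains on 1 gene were uncommon. Of the 10790 marked genes of at least 2 kb, 89.0% had 1 domain, 9.38% had 2, 1.14% had 3 and 0.44% had 4 or more, up to 8. Median mRNA coverage was 7.20 (7.04 to 7.34) with 1 domain and 7.46 (6.78 to 8.26) with 2. With 4 or more it was 1.25 (1 to 1.79). Median score per kb was 937.5, 795.2, 622.2 and 493.5 in that order of domain number. H3K27me1 was on 3.48% of the genes with 1 domain and 85.4% of those with 4 or more, and its part was not tested. The median span of these genes was 2997 bp (2965 to 3029) and 6648 bp (5331 to 7865), and the part of span was not tested either.

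mRNA coverage was then compared with the extent and density of the mark. Listed genes were put into 10 groups of nearly equal size by coverage, from 1 to 1.12 in the lowest to 29.9 or more in the highest. Among genes of at least 2 kb, the marked share was 34.9% in the lowest group, 72.3% in the third, 92.4% in the fifth and 96.8% in the highest. Without genes that carried at least 200 bp of H3K27me1 or 5mC it was 22.7% in the lowest group and 97.4% in the highest. The median reach of genes with 1 marked end went from 546 bp (515 to 589) in the lowest group through 715 bp (701 to 731) in the fifth to 1027 bp (983 to 1074) in the highest. The quartiles were 405.5 and 724 bp in the lowest group and 784.2 and 1504.5 bp in the highest, so the middle of the 2 groups did not overlap. Across 9335 genes the Spearman correlation of coverage with reach was 0.41 (r with log2(coverage + 1) 0.42).

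The outward side did not go with mRNA in this way. The median overhang beyond the span was 0 bp (0 to 5) in the lowest group, 24 bp (17 to 31) in the third and 0 bp (0 to 1) in the highest. Its Spearman correlation with coverage was -0.12 (r = -0.09). Higher mRNA thus went with a longer stretch inside the gene and not outside it.

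**Figure D4:**
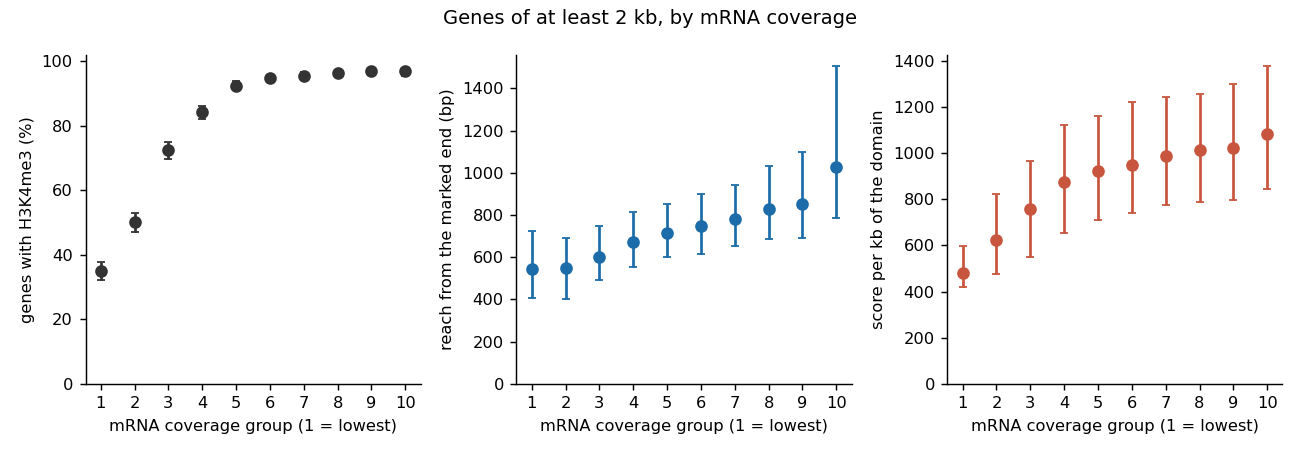
Genes of at least 2 kb in 10 groups by mRNA coverage (x axis, 1 is lowest): share with H3K4me3 in % with 95% intervals (left), reach from the marked end in bp (middle) and score per kb (right), the last 2 as medians with quartiles. The share stays between 92.4% and 96.9% from the fifth group on, while reach goes on up to 1027 bp.

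Score per kb followed coverage mostly in the lower groups. In genes of at least 2 kb its median was 480 (468.9 to 493.3) in the lowest group, 756.7 in the third, 924.4 (898.3 to 946.7) in the fifth and 1084 (1054 to 1120) in the highest. Over all marked genes the Spearman correlation of coverage with score per kb was 0.36 (r = 0.33), and within the 7 span classes it ran from 0.27 to 0.45. The Spearman correlation of coverage with H3K4me3 bp in the span was 0.33 (r = 0.26), and 0.20 to 0.41 within classes. H3K27me1 was on 55.7% of the marked genes of at least 2 kb in the lowest group and on 1.04% in the highest. H3K27me3 was on 44.3% and 5.94% of them. Without the genes with H3K27me1 or 5mC, H3K27me3 was on 33.3% and 5.66%, and its part was not tested. Without those genes, the median reach was 503 bp (440 to 531) and 1027 bp (983 to 1077) in these groups. The median score per kb was then 493.3 and 1086.

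At equal span the order by mRNA was the same for score per kb. Marked genes were cut into 3 equal parts by coverage. In genes of 1 to 2 kb the median score per kb was 755.1, 966.1 and 1083 from the lowest to the highest part. In genes of 3 to 5 kb it was 741.7, 954.7 and 1022. In genes of 8 kb or more it was 711.1 (633.9 to 764.4), 1029 (972 to 1131) and 1030 (848.9 to 1160), so the upper 2 parts were not separated there. Median H3K4me3 bp in the span was 646, 750 and 900 in this longest class and 627.5, 750 and 900 at 2 to 3 kb.

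The relation was also read from the mark to the mRNA. In 10 groups of marked genes by score per kb, median coverage was 2.63 (2.48 to 2.81) in the lowest, 7.73 (7.33 to 8.13) in the fifth and 12.9 (12.2 to 13.8) in the highest. The quartiles were 1.33 and 6.36 in the lowest group and 6.90 and 29.7 in the highest. Median reach in these score groups went from 515 to 907.5 bp. From the lowest to the highest group, H3K27me3 was on 28.1% and 2.93% of the genes, H3K27me1 on 15.2% and 1.49% and 5mC on 14.8% and 2.82%, and their part was not tested.

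By marked stretch, median coverage was 2.49 (2.36 to 2.72) in genes with 200 to 300 bp of H3K4me3. It was 7.62 (7.39 to 7.87) with 601 to 750 bp and 16.7 (13.7 to 18.1) with 1501 to 1996 bp. Above 3 kb this did not hold: the 51 genes with 3001 to 6300 bp had a median of 1.27 (1 to 4.36) and an upper quartile of 23.3. Of these 51 genes 66.7% carried H3K27me1, against 6.15% of those with 1501 to 1996 bp, and its part was not tested.

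The longest marked stretches fell into both kinds. Of the 5 genes with most H3K4me3 bp in the span, 4 had coverage from 1.23 to 4.36 and H3K27me1 over 31.9% to 100% of the span. The first was Aa_G222160 on chromosome 7 (6349649 to 6394038), the longest listed gene at 44390 bp, with 8 domains and 6300 bp of H3K4me3. The other gene of the 5 was Aa_G239240 on chromosome 2 (27678495 to 27684008), with 1 domain of 5250 bp over 95.2% of its span, free of the other marks, and coverage 55.1. That domain (27678751 to 27684000) was the longest in the list lying wholly inside 1 gene, at 1203 per kb. The table pairs no identifier with a name or function, so at most 2 identifiers are given per set.

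H3K4me3 over most of the span was found mainly on short genes. It covered at least 90% of the span in 967 of 24657 listed genes. Their median span was 865 bp (825 to 902). The median stretch of H3K4me3 was 600 bp in marked genes of 0.5 to 1 kb and levelled off at 750 bp from 1 kb of span upwards. A stretch of that size fills 90% of a short span only, and its part here was not tested. Median coverage was 12.5 (11.1 to 14.4), against 7.49 (7.37 to 7.62) in all marked genes. The quartiles of coverage in the 967 genes were 4.50 and 44.0. Among the 5 longest of them, 3 had coverage of 1 to 1.27 and H3K27me1 over 95.7% to 100% of the span. The other two were Aa_G239240 and Aa_G14910 on chromosome 3 (178168 to 182712), wholly inside a 5.1 kb domain at 2191 per kb, with coverage 79.4.

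The densest domains were not the longest, and the genes on them differed widely in mRNA. Among domains no shorter than the median, the 5 highest scores per kb ran from 3241 to 4675, which is 5.67 to 8.18 times the median of the list. These domains were 750 bp to 2.1 kb long, and each touched 1 or 2 listed genes. The highest lay on scaff_39002_1 (53551 to 55200) over the whole of Aa_G719120 (53597 to 55121), with coverage 65.5. The genes on the other 4 had coverage from 2.15 to 41.0, and the highest of the 10 coverage groups began at 29.9. None of the 5 domains overlapped H3K27me1 or H3K27me3, and 1 overlapped 5mC, over 35.7% of its bp.

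The marked genes of highest mRNA in each span class varied in how much of the span was marked. In the class of 3 to 5 kb this was Aa_G556440 on chromosome 1 (15447136 to 15450670), with coverage 2133 and a single domain reaching 3315 bp from the marked end, over 93.4% of the span. In the class of 8 kb or more it was Aa_G2390 on chromosome 5 (22031740 to 22039910), with coverage 212.4 and a single domain of 600 bp at neither end. H3K27me3 covered 61.9% of the latter's span and none of the former's.

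Unmarked genes rarely had a domain just outside the span. Of 5863 unmarked listed genes, 94.97% had no H3K4me3 bp at all. A domain lay on or within 500 bp of 14.2% of them (13.3% to 15.1%) and within 1 kb of 24.0%. Among the 155 unmarked genes of the highest coverage group the shares were 7.74% (4.06% to 13.1%) and 15.5% (10.2% to 22.2%). These 155 genes had a median span of 886 bp (839 to 1035), and 21.3% were under 0.5 kb.

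Of the 21190 genes of at least 1 kb, 3940 had no H3K4me3 bp. Their median coverage was 1.62 (1.57 to 1.66), and 67 of them (1.70%) were in the highest of the 10 coverage groups. H3K27me3 was on 34.4% of them, against 8.09% of marked genes of any span. The 5 of highest coverage ran from 314.3 to 471.8, and each was covered over at least 93.2% of its span by H3K27me3 or by H3K27me1 and 5mC together. The nearest H3K4me3 domain was 4184 bp or more away. Of these 5 genes, 3 lie close together on chromosome 2 (2341335 to 2350256), so they are not separate instances. Nor do the 5 stand for the whole highest group. Among its 155 unmarked genes of any span, H3K27me3 was on 20%, H3K27me1 on 11.6% and 5mC on 9.68%.

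Neighbouring genes showed which of their ends were marked. Among 22942 pairs of neighbouring listed genes that do not overlap, both genes were marked at exactly 1 end in 9916. The marked ends lay on the same side in 4929 pairs (49.7%), faced each other in 2574 (25.96%) and faced away in 2413 (24.3%). The gap between the genes went with this arrangement. Its median was 336 bp (276 to 397) where the marked ends faced away and 3478 bp (3174 to 3704) where they faced each other. Of the 2404 pairs less than 300 bp apart, 49.0% (47.0% to 51.0%) faced away and 16.8% (15.3% to 18.4%) faced each other. At gaps of 3 kb or more the shares were 15.1% and 32.1%.

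Facing ends shared a domain almost only where the genes lay close together. Of the 404 pairs with facing marked ends under 300 bp apart, 164 shared 1 domain, so separate domains were somewhat more common there. Of all 2574 facing pairs, 168 did. A shared domain has to reach across the gap, and none was found in the 481 facing pairs at 1 to 3 kb or the 1364 at 3 kb or more. The count over all facing pairs therefore depends on their gaps. The mRNA coverage of the genes in those 404 pairs was only weakly related, with a Spearman correlation of 0.098.

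**Figure D5:**
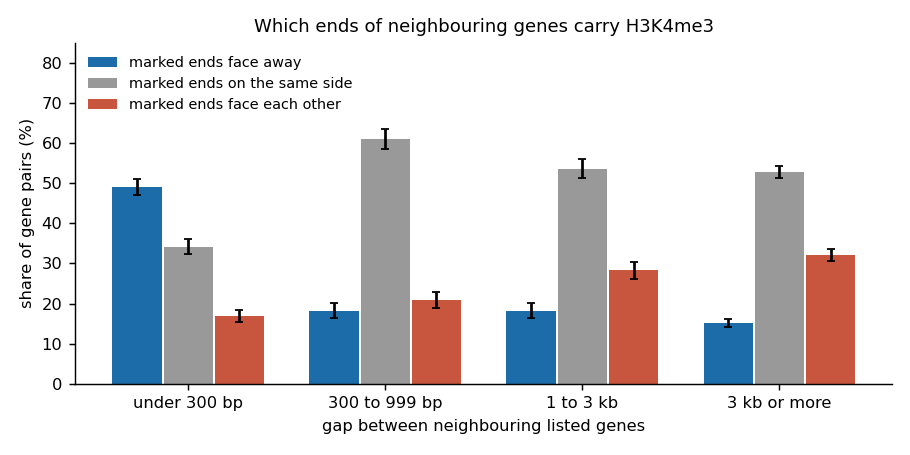
Share of neighbouring gene pairs in % (y axis, with exact 95% intervals) by which ends carry H3K4me3, in 4 classes of the gap between the genes (x axis). Pairs whose marked ends face away make up 49.0% at gaps under 300 bp and 15.1% at 3 kb or more, and pairs that face each other 16.8% and 32.1%.

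The share of marked genes varied little between chromosomes and was lower on unplaced scaffolds. On the 8 chromosomes the marked share ran from 78.4% on chromosome 2 to 82.0% on chromosome 8, and median score per kb of marked genes from 900 to 956.7. On scaffolds 44.2% (42.2% to 46.2%) of 2422 listed genes were marked. The marked genes there had a median of 899 per kb (861.3 to 926.7), against 931.7 (925.3 to 938.9) on chromosomes, and a median of 750 bp in both. Only 19.8% of the 6338 scaffold domains touched a listed gene, against 61.2% of those on chromosomes. Median mRNA coverage of listed genes was 3.47 on scaffolds and 6.04 on chromosomes, and 72.7% of the H3K4me3 bp on scaffolds lay in H3K27me1.

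The same measures in the other lists of the series are given side by side, without a test, as each mark has 1 list. In genes of at least 2 kb with the mark at 1 end, the outer edge lay within 150 bp of the span end in 93.4% for H3K4me3 (92.9% to 93.9%). It did so in 59.8% (56.5% to 63.1%) for H3K27me3, 69.3% for H3K27me1 and 42.8% for 5mC. For every mark, the rule for a marked end keeps the edge from lying more than 150 bp inside. The shares therefore differ only in how often domains ran outwards. They rest on 9335, 886, 306 and 395 genes in that order of marks. These were 86.5%, 52.0%, 36.0% and 40.8% of the genes of at least 2 kb with the mark. Median reach was 751 bp (745 to 758) for H3K4me3, 933 bp (871 to 986) for H3K27me3, 735 bp (672 to 875) for H3K27me1 and 831 bp (731 to 906) for 5mC. A median reach of this size was thus not particular to H3K4me3. Median overhang was 9, 81.5, 20 and 243 bp in that order of marks. The Spearman correlation of span with marked bp was 0.15 for H3K4me3, 0.45 for H3K27me3, 0.38 for H3K27me1 and 0.45 for 5mC. From genes of 1 to 2 kb to genes of 8 kb or more, the median marked stretch went from 1074 to 1800 bp for H3K27me3 and stayed at 750 bp for H3K4me3. The H3K27me3 list is on a 300 bp grid, so its edges are coarser.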

How the data were processed

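Per the submitters' processing notes, Bowtie and SICER were used, without versions. SICER calls broad enriched domains. The genome build, the calling parameters and how the 2 H3K4me3 libraries were combined were not given in the sources used here. The deposited H3K4me3 list holds 1 score per domain without a label, possibly a tag number, and the authors' scaling is not stated. The deposited mRNA table holds exon coverage per gene, a signal whose scaling by the authors is not stated, and depth is unknown. Domain starts were read as 0-based and ends as inclusive, and printed coordinates count from 1 on the authors' assembly. Overlaps, medians and correlations were computed with Python 3.11.15, numpy 2.4.6, pandas 2.3.3 and scipy 1.17.1, and tested on simulated data. Reach is the distance from the marked end to the inner edge of the domain nearest that end. Unmarked bp between the span end and the domain are counted in it. Overhang is the length of that domain outside the span. A gene's score is that of the domain with most bp on it. No p-value was computed, as genes and domains of 1 list are not replicates. The other mark lists were used for overlap with H3K4me3, to leave out genes in 1 alternative, and for the same measures side by side. Items were named by rule: the 5 longest and 5 densest domains, the longest inside 1 gene, the top marked gene by mRNA per span class, and 5 genes each by H3K4me3 bp, score per kb, mRNA without H3K4me3, and span with 90% covered. Gene lists by function could not be used without names, and no sequence was used. The measures and rules were chosen with earlier results of these data known. Alternatives were the overlap minimum, chromosomes only, the upper 50% of domains by score per kb, genes above the lowest coverage, the densest domain per gene, genes with unshared domains, a 600 bp end window, and domains of 2 windows or more. Leaving out genes with H3K27me1 or 5mC, the 200 kb windows and the stretch and position classes were added after seeing the data.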

Additional observations from a re-analysis of the deposited data

How the results depend on the processing

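Of 53 alternative values, 34 stayed within the interval of the value reported (for correlations, within 0.05) and 19 moved outside it. The sign of the Spearman correlation of span with score per kb differed with 50% of the span required; the other 52 kept theirs. The marked share, 76.2% as reported, was 22.8% with 50% of the span required, 77.4% with 1 bp, 79.7% on the 8 chromosomes, 65.5% with the upper 50% of domains by score per kb and 77.2% without genes carrying H3K27me1 or 5mC. Requiring 50% of the span ties the stretch to the span by construction: the Spearman correlation of span with H3K4me3 bp was then 0.89, that of span with score per kb 0.11 and that of coverage with H3K4me3 bp 0.24. With the upper 50% of domains, the Spearman correlation of coverage with score per kb was 0.25, the share with 1 marked end 89.2%, median reach 770 bp, overhang 12 bp, domain length 750 bp and the gap in median score per kb between domains with and without a listed gene 328.3, from 447.7 as reported. With a 600 bp end window the share with 1 marked end was 88.5%, reach 759 bp and overhang 3 bp. Overhang was 6 bp with unshared domains only, and the share with 1 marked end was 88.6% without genes carrying H3K27me1 or 5mC. No paired analysis was possible because the H3K4me3 libraries were deposited as 1 domain list. Leaving out a replicate was not run for the same reason. Depth is unknown, so no detection limit can be set, and edges are known only to the 150 bp window.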

Other observations

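Items named by 3 separate rules lay in the first 200 kb of chromosome 3, which was noticed after their values were seen. They were the 6.6 kb domain over 5 listed genes (191701 to 198300, 1432 per kb, coverage of its genes 6.96 to 21.5), the fully covered gene Aa_G14910 named above, and a 750 bp domain at 3716 per kb (21151 to 21900). Of 1169 windows of 200 kb on the chromosomes, this one had the highest score per kb, 1467 averaged over its H3K4me3 bp, against a median window of 845.8. Since it was noticed for domains of high score or length, this rank partly restates that choice. H3K4me3 covered 19.8% of it, the sixth highest share, against a median of 9.22%. It held 37 listed genes, 31 of them marked, against a median of 18 listed genes per window, and ranked 38 by listed genes.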
